A study of Mus musculus with 8 samples.

Results

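The smooth muscle and pericyte genes described here are 10 genes that mark the walls of blood vessels: Acta2, Tagln, Cnn1, Myl9, Lmod1, Des, Rgs5, Pdgfrb, Cspg4 and Notch3. They were chosen by symbol, and all 10 were found among the 18022 genes of the count table. Poly(A) RNA of whole subcutaneous fat was sequenced from 8 mice of C57BL/6J background (back-crossed 4 times), 1 library a mouse. The 4 libraries labelled KO carry the genotype Pkd1adipo delta/delta, a deletion of protein kinase D1 (gene symbol Prkd1, called Pkd1 by the study) in adipocytes. The 4 libraries labelled WT carry Pkd1(flox/flox), the floxed allele without the deletion. The labels give neither the driver of the deletion nor age, sex, diet, batch or litter. Libraries are called by label and replicate number, as in KO3.

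Small arteries are wrapped by smooth muscle cells and capillaries by pericytes, and both are called mural cells. Contractile genes of smooth muscle are switched on by serum response factor, which binds a short sequence called the CArG box, together with myocardin-family coactivators. Pericytes are recruited to new vessels when endothelial PDGF-B meets the receptor encoded by Pdgfrb, and Notch3 receives signals from endothelial Jagged ligands. The labelled deletion concerns adipocytes, a cell type for which these genes are not markers. In whole tissue, fewer mural cells and less RNA per cell cannot be told apart.

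The libraries held between 2617755 and 2873457 reads. Prkd1 had 71, 108, 84 and 94 reads in KO1 to KO4, and 88, 72, 94 and 73 reads in WT1 to WT4. Its log2 fold change was 0.06 ± 0.15 (SE), with a 95% interval of -0.26 to 0.39. Reads were summed over all of Prkd1 and all cells of the tissue, so they gave no check of the labels, and directions given here follow the labels alone. Of the 14556 genes tested, 0 (0%) were higher and 0 (0%) were lower in libraries labelled KO at an adjusted p of 0.05 (edgeR quasi-likelihood test), while 653 (4.49%) had an unadjusted p under 0.05. Values are CPM, read counts divided by library size after TMM scaling, and fold changes are of libraries labelled KO over libraries labelled WT.

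Levels of the 10 genes were compared per kilobase of exon. Rgs5, which speeds the switching off of G protein signals in pericytes, was the most abundant, with a median of 68.0 CPM per kilobase over the 8 libraries (range 44.9 to 85.1). It was above Acta2, the actin of smooth muscle at 25.6 CPM per kilobase (18.6 to 49.6), in 8 of 8 libraries. Acta2, Tagln (21.3) and Myl9 (19.6) lay close together, and the order of neighbours among these 3 held in 6 and in 5 of 8 libraries. Pdgfrb (15.5 CPM per kilobase) was above Notch3 (12.4), and Notch3 above Cspg4 (6.81), in 8 of 8 libraries each. Cspg4 was above Des (6.69) in 4 of 8 libraries, so their order was not fixed. Lmod1 (1.53 CPM per kilobase) and Cnn1 (0.334) were lowest.

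**Figure D1:**
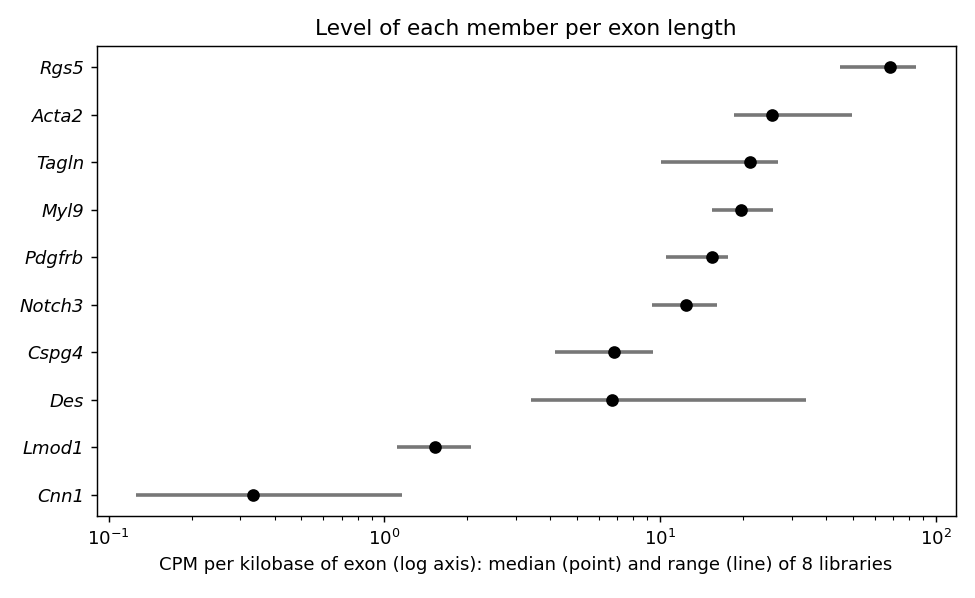
CPM per kilobase of exon on a log axis for the 10 genes, with the median of the 8 libraries as a point and their range as a line. Rgs5 lies at the top with a median of 68.0, Cnn1 at the bottom with 0.334, and Des spans the widest range of the members over 1 CPM per kilobase, from 3.40 to 33.9.

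Of the 10 genes, 9 had enough reads to be tested and 0 passed the threshold in either direction. The largest fold change was that of Des, the intermediate filament gene desmin, at 4.28-fold, with KO3 at the level of the libraries labelled WT. Lmod1, an actin nucleator of smooth muscle, was 1.46-fold and was the 1 gene of the 9 whose labels did not overlap. The other 7 had fold changes between 0.783 (Acta2) and 1.17 (Myl9), each with an interval that included no change. Of the 9 log2 fold changes 7 were positive and 2 negative, with a median of 0.18, against 0.00041 over all genes tested, of which 7290 were positive and 7266 negative. Libraries labelled KO lay above those labelled WT without overlap for 1.53% of all tested genes, and below them for 1.39%.

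**Figure D2:**
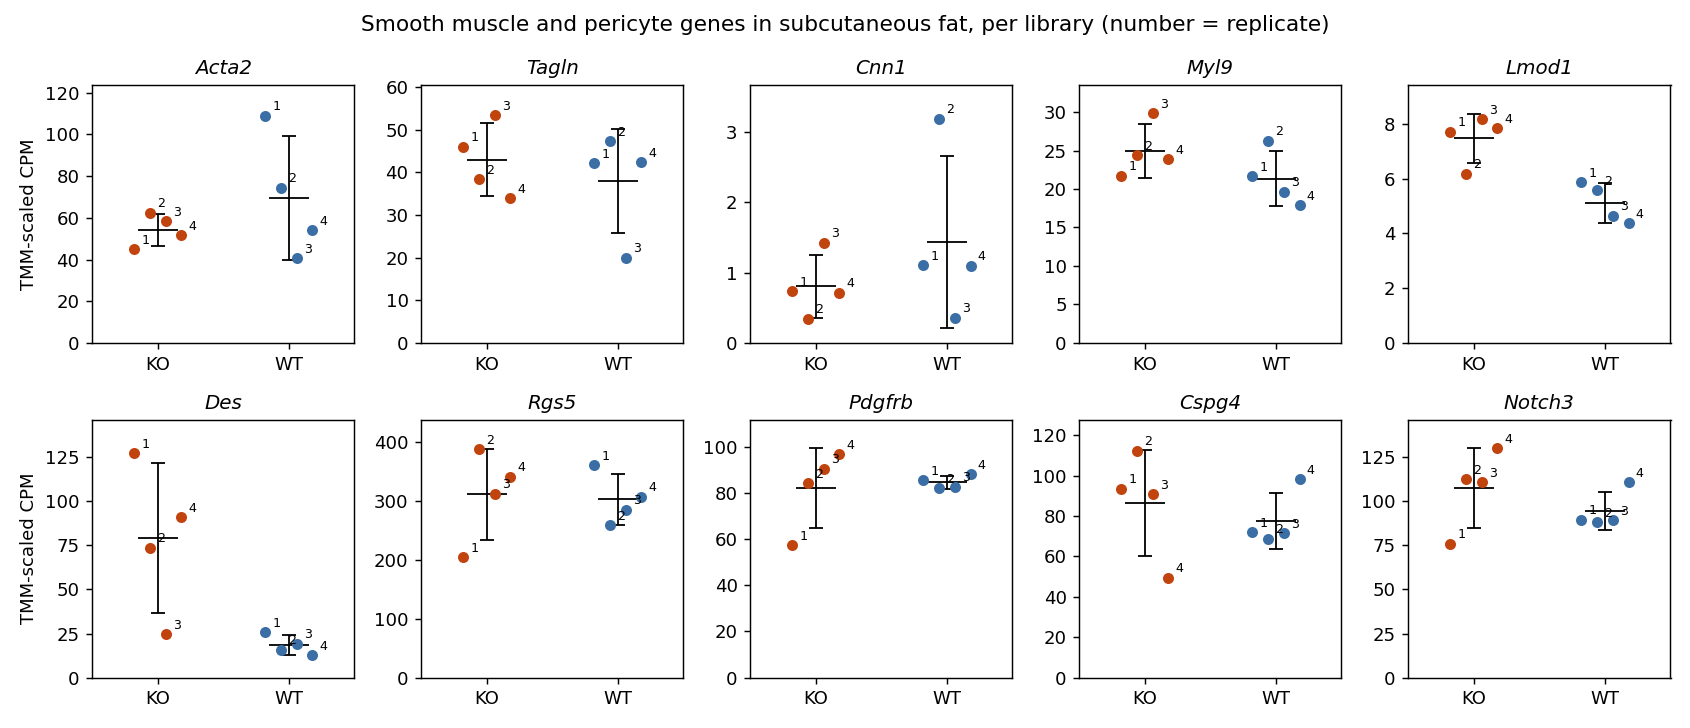
TMM-scaled CPM of the 10 genes in each library, with KO left of WT, points numbered by replicate, and bars for the mean and SD of 4 libraries. Des is high in KO1, KO2 and KO4 but not KO3, Lmod1 is separated by label, and the point for KO1 is the lowest of all 8 for Rgs5, Pdgfrb and Notch3.

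Of the contractile genes of smooth muscle, Acta2 had a negative log2 fold change and Tagln, Myl9, Lmod1 and Myh11 positive ones, none past the threshold. Acta2 (ENSMUSG00000035783) had 44.9, 62.5, 58.3 and 51.7 CPM in KO1 to KO4, and 109, 74.4, 40.7 and 54.0 CPM in WT1 to WT4. The highest library was WT1 and the lowest WT3, so the libraries labelled WT surrounded those labelled KO. Acta2 averaged 54.3 ± 7.71 CPM in libraries labelled KO and 69.5 ± 29.7 CPM in libraries labelled WT (SD, n = 4 each), a log2 fold change of -0.35 ± 0.27 (SE; 95% interval -0.95 to 0.24; edgeR quasi-likelihood adjusted p = 0.998). With 1 library left out it ran from -0.54 (without WT3) to -0.050 (without WT1). Oxtr, the oxytocin receptor gene listed as a mammary myoepithelial marker, was also highest in WT1, with 396 reads, against 37 to 156 reads in the libraries labelled KO and 83 to 206 reads in the other libraries labelled WT. The other 3 mammary epithelial markers in the table were not highest there: Trp63 was lowest in WT1 (3 reads), and Krt19 and Cdh1 had 1 and 9 reads in WT1, against 28 and 23 reads in WT2. The sum of the 4 ran from 17.3 to 61.4 CPM in libraries labelled KO and from 42.3 to 150.1 CPM in libraries labelled WT, with 86.3% from Oxtr. Lep, listed as an adipocyte marker, was also highest in WT1 (3319 CPM) and lowest in KO1 (971 CPM). Oxtr had 145 and 13.6 CPM in these libraries, its highest and lowest values, and the cell source of its reads was not tested. Krt5, Krt14, Krt17, Krt8, Krt18 and Epcam were not in the table used here. The part of mammary epithelial cells in the Acta2 level was not tested.

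Tagln, which encodes the actin-binding protein transgelin, had 46.0, 38.4, 53.3 and 33.9 CPM in KO1 to KO4, and 42.2, 47.4, 20.02 and 42.3 CPM in WT1 to WT4. One library stood low, WT3, and the labels overlapped. The log2 fold change was 0.18 ± 0.24, and -0.034 without WT3. Exons of Tagln overlap those of Pcsk7 on the opposite strand in the GENCODE M21 annotation, and since the kit named in the labels is not a directional one, reads of the overlap cannot be assigned. Pcsk7 itself had 84 to 112 reads per library.

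Myl9, a regulatory light chain of myosin, had 21.7, 24.4, 29.9 and 23.9 CPM in KO1 to KO4, and 21.7, 26.3, 19.7 and 17.9 CPM in WT1 to WT4. KO3 was highest and WT4 lowest, with overlap. Its log2 fold change was 0.23 ± 0.17 (95% interval -0.14 to 0.59). Myh11, the smooth muscle myosin heavy chain that works with it, had 29.1, 51.5, 58.3 and 42.1 CPM in KO1 to KO4, and 41.5, 47.4, 31.1 and 31.0 CPM in WT1 to WT4, again with KO3 highest and a log2 fold change of 0.27 ± 0.21. Cnn1, calponin, had 2, 1, 4 and 2 reads in KO1 to KO4, and 3, 8, 1 and 3 reads in WT1 to WT4. At 9 reads in all in libraries labelled KO and 15 in those labelled WT it was not tested, and a difference was not detectable at this depth.

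Lmod1 (ENSMUSG00000048096) had 7.72, 6.18, 8.18 and 7.84 CPM in KO1 to KO4, and 5.87, 5.57, 4.65 and 4.38 CPM in WT1 to WT4. Every library labelled KO was above every library labelled WT, by 6.18 against 5.87 CPM at the nearest. These values rest on 21, 18, 23 and 22 reads in KO1 to KO4, and 16, 14, 13 and 12 reads in WT1 to WT4. Its log2 fold change was 0.54 ± 0.24 (95% interval 0.02 to 1.07; edgeR quasi-likelihood unadjusted p = 0.0417, adjusted p = 0.998). With each library left out it stayed between 0.48 and 0.63, and by p it was number 534 of the 14556 genes tested. Lmod1 was highest in KO3, the library labelled KO with the lowest skeletal muscle marker sum.

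Promoters of 8 of the 10 genes were matched in the RefSeq promoter table (GRCm38.p6; 250 bases before to 50 after the gene's start), and those of 3 contractile genes are shown because they hold the motif matches found. Capitals mark the CArG box (with at most 1 G or C in its core) and the M-CAT core CATTCC, each searched on both strands. Acta2 lies at chr19:34255324-34255623 on the minus strand, Myl9 at chr2:156775214-156775513 and Lmod1 at chr1:135324563-135324862, both on the plus strand.
Acta2: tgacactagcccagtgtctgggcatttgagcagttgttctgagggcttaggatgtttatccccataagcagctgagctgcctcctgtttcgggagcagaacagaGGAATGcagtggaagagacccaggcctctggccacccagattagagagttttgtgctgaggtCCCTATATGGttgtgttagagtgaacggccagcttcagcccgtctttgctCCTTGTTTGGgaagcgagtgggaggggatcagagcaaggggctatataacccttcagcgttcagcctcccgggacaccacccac
Myl9: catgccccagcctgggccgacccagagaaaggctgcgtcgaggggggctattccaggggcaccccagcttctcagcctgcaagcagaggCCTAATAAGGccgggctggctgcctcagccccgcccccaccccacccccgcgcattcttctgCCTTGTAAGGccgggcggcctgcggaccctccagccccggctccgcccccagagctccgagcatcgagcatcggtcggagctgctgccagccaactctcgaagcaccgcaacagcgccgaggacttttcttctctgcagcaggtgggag
Lmod1: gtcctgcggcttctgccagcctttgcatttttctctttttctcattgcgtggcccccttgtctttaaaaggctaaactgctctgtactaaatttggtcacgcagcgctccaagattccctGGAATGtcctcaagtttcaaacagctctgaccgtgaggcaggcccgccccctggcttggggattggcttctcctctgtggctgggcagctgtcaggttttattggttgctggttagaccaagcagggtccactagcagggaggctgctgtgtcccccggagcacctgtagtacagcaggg
Acta2 held 2 CArG boxes with 1 G or C in the core, starting 84 and 34 bases before the gene's start, and 1 CATTCC on the other strand. Myl9 held a strict CArG box starting 161 bases before the start and a second with 1 G in its core at 99 bases. Lmod1 held 1 CATTCC and no CArG box in this window. A strict CArG box occurred in 1.63% of 32841 promoters of the table, the form with at most 1 G or C in 9.98% and CATTCC in 14.7%, against 1, 2 and 2 of the 8 members. The RBPJ core TGGGAA, through which Notch signals act, occurred in 25.6% of promoters and, of the 8, in Acta2, where it overlaps the CArG box nearer the start.

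Des was high in 3 of the 4 libraries labelled KO. Desmin links the sarcomeres of skeletal and heart muscle as well as the contractile apparatus of smooth muscle. Des (ENSMUSG00000026208) had 127, 73.8, 24.5 and 90.9 CPM in KO1 to KO4, and 25.7, 15.9, 19.3 and 12.8 CPM in WT1 to WT4. KO3 was below WT1 and above the other libraries labelled WT. The means were 79.1 ± 42.7 CPM in libraries labelled KO and 18.4 ± 5.53 CPM in libraries labelled WT (SD, n = 4 each), with a log2 fold change of 2.10 ± 0.50 (95% interval 0.92 to 3.28; edgeR quasi-likelihood unadjusted p = 0.00392, adjusted p = 0.998).

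Skeletal muscle markers were high in KO1, KO2 and KO4, as was Des. The sum of these markers over 24 genes was 3849.6, 2430.3, 514 and 4333 CPM in KO1 to KO4, and 474, 265, 675 and 158 CPM in WT1 to WT4. Within KO1, KO2 and KO4, and within the rest, the order of the sum was not that of Des. Of the 24 markers all were tested, all lay above 0 in log2 fold change (median 2.95), and 0 passed the threshold. Some passed the count filter only through libraries labelled KO, such as Actn2, with 3, 2, 8 and 1 reads in WT1 to WT4. The list was fixed with earlier results of these data known. Mylpf, Myoz1, Pvalb and Tcap had 0 reads in WT4 and Mybpc1 had 0 in WT2, while every marker had reads in all libraries labelled KO. Acta1, the skeletal muscle actin, had 607, 376, 61.5 and 441 CPM in KO1 to KO4, and 75.2, 44.6, 64.0 and 9.85 CPM in WT1 to WT4. Des reads per Acta1 read were 0.210, 0.196, 0.399 and 0.206 in KO1 to KO4, and 0.341, 0.357, 0.302 and 1.30 in WT1 to WT4. With the mean log2 level of the skeletal muscle markers as a covariate the log2 fold change of Des was 0.32 ± 0.36. That mean ran from 3.79 to 6.85 in libraries labelled KO and from 1.42 to 4.06 in those labelled WT. It thus rose with the label, and this fit cannot separate the 2. Mural and skeletal desmin come from the same gene, and the part of each in the Des counts was not tested.

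Acta2 was highest in WT1 and Lmod1 in KO3, whose skeletal muscle sums were 474 and 514 CPM. WT4, with the lowest sum (158 CPM), was lowest for Lmod1 and Des. With the same covariate the log2 fold change of Lmod1 was 0.54 ± 0.40 and that of Acta2 -0.35 ± 0.46. Tagln went from 0.18 to 0.73 ± 0.33 with it, and Cspg4 from 0.16 to 0.53 ± 0.33. Myh11 went from 0.27 to 0.60 ± 0.31. Myl9 was 0.41 ± 0.27 with it, Notch3 0.36 ± 0.26 and Rgs5 0.06 ± 0.30. The coding sequences of Acta2 and Acta1 are 85.4% identical over 1134 bases (GENCODE M21), and how reads were assigned between them was not tested. Acta1 ran between 27 and 1649 reads over the 8 libraries and Acta2 between 114 and 297.

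**Figure D3:**
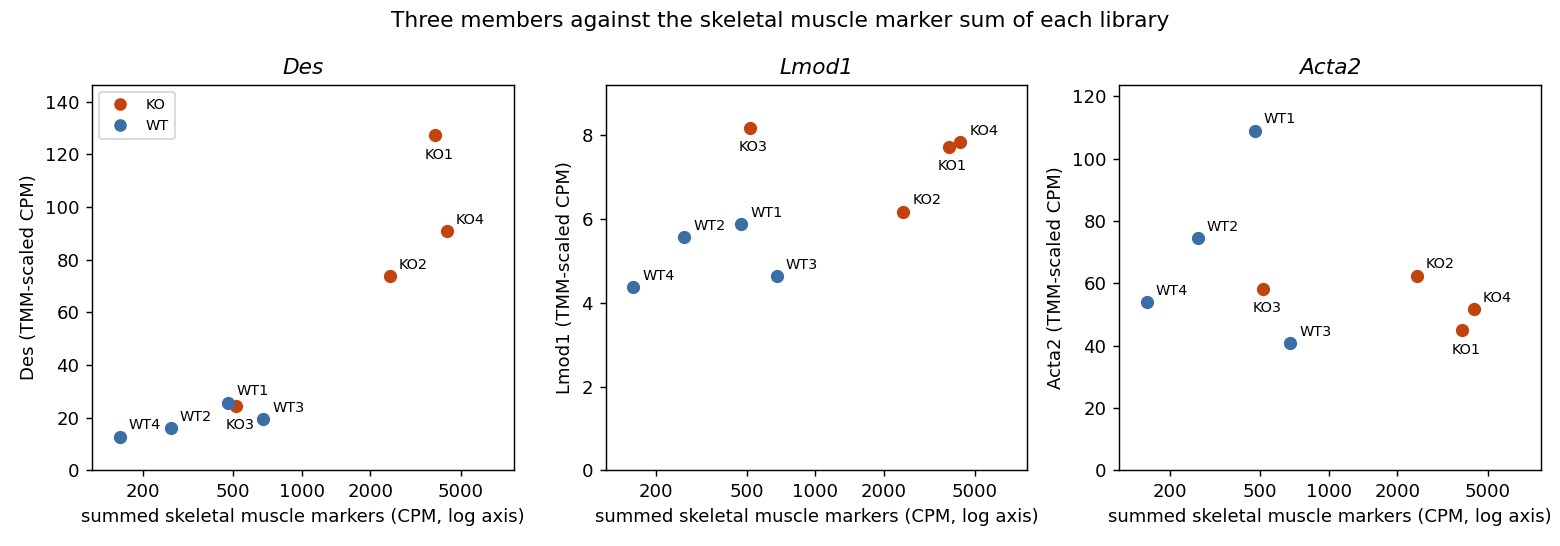
TMM-scaled CPM of Des, Lmod1 and Acta2 (vertical axes) against the summed CPM of 24 skeletal muscle markers in the same library (log axis), with KO in orange and WT in blue. Des is 73.8 CPM or more in the 3 libraries with sums of 2430.3 CPM or more and at most 25.7 CPM in the other 5, Lmod1 is highest in KO3, whose sum is 514 CPM, and Acta2 is highest in WT1.

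None of the 4 pericyte genes passed the threshold, and KO1 was the lowest library for 3 of the 4. Rgs5 (ENSMUSG00000026678) had 204, 387, 311 and 341 CPM in KO1 to KO4, and 360, 258.3, 284 and 306 CPM in WT1 to WT4. KO1 lay below and KO2 above every library labelled WT. The means were 311 ± 77.5 CPM in libraries labelled KO and 302 ± 43.1 CPM in libraries labelled WT (SD, n = 4 each), with a log2 fold change of 0.04 ± 0.18 (95% interval -0.35 to 0.43) and, without KO1, 0.20.

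Pdgfrb (ENSMUSG00000024620), the PDGF receptor of mural cells, had 57.4, 84.1, 90.3 and 96.6 CPM in KO1 to KO4, and 85.5, 82.0, 82.6 and 87.9 CPM in WT1 to WT4. The libraries labelled WT were within 1.07-fold of each other, and those labelled KO spread over 1.68-fold around them. Its log2 fold change was -0.04 ± 0.15 (95% interval -0.36 to 0.28), and 0.097 without KO1. Notch3 (ENSMUSG00000038146), the Notch receptor of mural cells, had 75.8, 113, 111 and 130 CPM in KO1 to KO4, and 89.6, 88.0, 89.4 and 111 CPM in WT1 to WT4. KO1 was again lowest and KO4 highest, with a log2 fold change of 0.18 ± 0.16, which ran from 0.079 without KO4 to 0.32 without KO1.

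Cspg4, which encodes the NG2 proteoglycan of pericytes and of glial progenitors, had a different order. Its values were 93.4, 112, 90.7 and 49.6 CPM in KO1 to KO4, and 71.9, 68.9, 71.5 and 98.1 CPM in WT1 to WT4. The lowest library was KO4, in which Pdgfrb and Notch3 were highest. Cspg4 reads per Pdgfrb read were 1.63, 1.33, 1.004 and 0.513 in KO1 to KO4, and 0.841, 0.840, 0.866 and 1.12 in WT1 to WT4. The log2 fold change was 0.16 ± 0.22 (95% interval -0.32 to 0.63), and ran from 0.0026 without KO2 to 0.35 without KO4. Schwann cell and nerve markers summed to 626 CPM in KO1, against 279 to 330 CPM in the other libraries labelled KO and 283 to 363 CPM in those labelled WT; their part in the Cspg4 level was not tested.

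**Figure D4:**
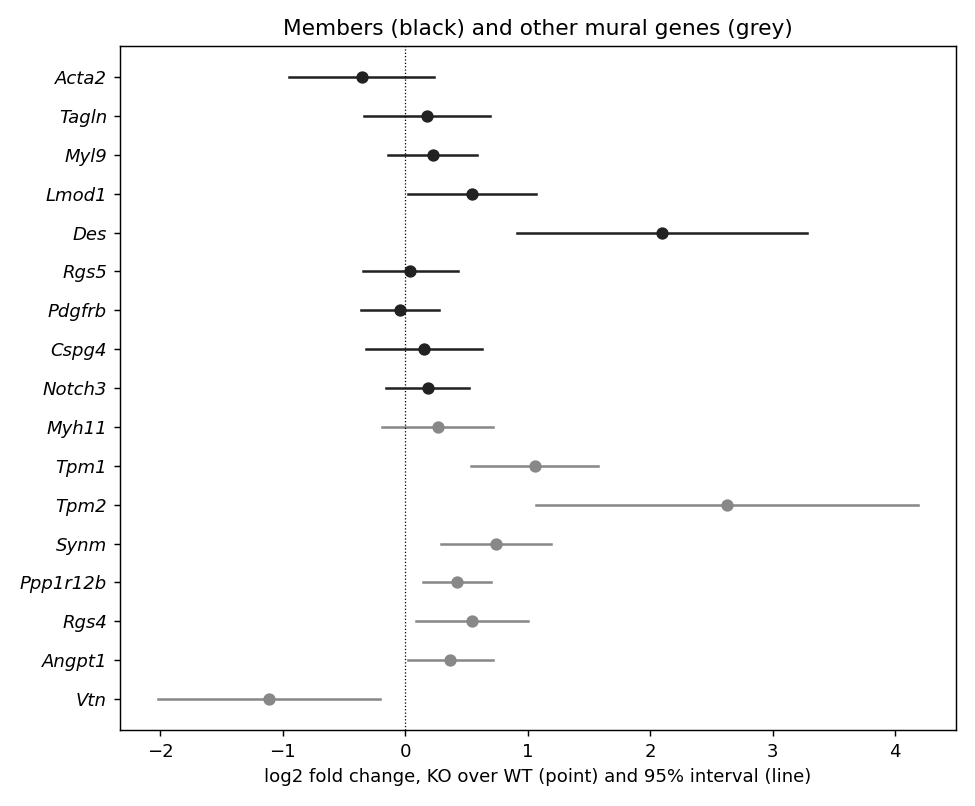
Log2 fold change of KO over WT (point) with its 95% interval (line) for the 9 tested members in black. In grey are 8 other genes from the contractile and mural cell lists, of which Tpm1 and Tpm2 are shared with skeletal muscle. Intervals of Des (0.92 to 3.28) and Lmod1 (0.02 to 1.07) lie above 0 before adjustment, and the other 7 members' intervals include 0.

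Rgs5 and Pdgfrb were also set against an endothelial gene, and the cell source of their reads in whole tissue was not tested. Rgs5 reads per read of Pecam1, an adhesion molecule of all endothelial cells, were 1.08, 1.91, 1.41 and 1.62 in KO1 to KO4, and 1.70, 1.05, 1.37 and 1.49 in WT1 to WT4. The labels overlapped, with KO1 and WT2 low. Pdgfrb reads per Pecam1 read were 0.304, 0.415, 0.408 and 0.460 in KO1 to KO4, and 0.403, 0.333, 0.397 and 0.427 in WT1 to WT4, with the same 2 libraries lowest. Pecam1 itself averaged 206 ± 13.6 CPM in libraries labelled KO and 218 ± 18.9 CPM in libraries labelled WT (SD, n = 4 each), and 0 of 12 endothelial markers passed the threshold. Acta2 reads per Rgs5 read were 0.220, 0.161, 0.187 and 0.152 in KO1 to KO4, and 0.303, 0.288, 0.143 and 0.176 in WT1 to WT4. WT1 and WT2 were the highest.

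Other contractile and serum response factor target genes were read from the same fit. Of 26 listed, 23 were in the table and 21 were tested, of which 0 passed, 12 had positive and 9 negative log2 fold changes, and the median was 0.01. There were 4 with an unadjusted p under 0.05 (Tpm1, Synm, Ppp1r12b and Tpm2), where 4.49% of all genes tested had one. Tpm1, a tropomyosin of smooth and striated muscle, had 183, 155, 94.9 and 234 CPM in KO1 to KO4, and 85.2, 87.6, 84.7 and 62.7 CPM in WT1 to WT4, with a log2 fold change of 1.06 ± 0.24 (edgeR quasi-likelihood adjusted p = 0.893; DESeq2 adjusted p = 0.00561). Its lowest library labelled KO was KO3, as for Des. Tpm2, also shared with skeletal muscle and named after its values were seen, had 28.8 CPM in KO3 and 107 to 191 CPM in the other libraries labelled KO, against 6.201 to 23.6 CPM in those labelled WT. Synm, an intermediate filament partner of desmin, had 58.1, 52.5, 33.8 and 77.4 CPM in KO1 to KO4, and 30.5, 30.6, 34.3 and 37.2 CPM in WT1 to WT4, with KO3 below WT3 and WT4.

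Ppp1r12b, a targeting subunit of myosin phosphatase, differed from these 3 in that KO3 was like the other libraries labelled KO. It had 72.8, 76.2, 70.8 and 66.0 CPM in KO1 to KO4, and 54.0, 42.6, 58.6 and 57.6 CPM in WT1 to WT4, without overlap and with a log2 fold change of 0.42 ± 0.13 (edgeR quasi-likelihood unadjusted p = 0.00545, adjusted p = 0.998). The labels also did not overlap for Tpm1, Tpm2 and Mkl2, which makes 4 of 21, all with libraries labelled KO higher, where 1.53% of all tested genes lay that way.

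Among 19 other pericyte and mural cell genes, 16 were tested, 0 passed, 8 were positive and 8 negative, with a median of 0.00036. Rgs4, a relative of Rgs5 found in some pericytes, had 12.9, 12.7, 11.7 and 9.98 CPM in KO1 to KO4, and 8.81, 9.95, 6.43 and 7.30 CPM in WT1 to WT4. Its lowest library labelled KO was just above its highest library labelled WT, and the log2 fold change was 0.54 ± 0.21 on 18 to 37 reads (edgeR quasi-likelihood adjusted p = 0.998). Angpt1, the Tie2 ligand that mural cells give to endothelium, had 36.8, 32.6, 35.9 and 30.7 CPM in KO1 to KO4, and 19.8, 23.9, 30.7 and 30.6 CPM in WT1 to WT4, with a log2 fold change of 0.37 ± 0.16. Vtn, vitronectin, which liver also makes, had 11.04, 18.5, 8.53 and 8.91 CPM in KO1 to KO4, and 36.3, 14.7, 13.2 and 37.6 CPM in WT1 to WT4, with WT1 and WT4 high. The log2 fold change of Vtn was -1.11 ± 0.41.

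Ligands and other receptors of the PDGF and Notch pathways had small values. Of 5 tested PDGF genes 0 passed, and 2 were positive. Pdgfb, the endothelial ligand of the Pdgfrb product, averaged 47.3 ± 9.50 CPM in libraries labelled KO and 49.2 ± 3.15 CPM in libraries labelled WT (SD, n = 4 each; log2 fold change -0.06 ± 0.15), with Pdgfc at 0.09 ± 0.17 and Pdgfra at 0.12 ± 0.14. Of 13 tested Notch genes 0 passed and 6 were positive, with a median of -0.03. Jag2, a Notch ligand, had 28.0, 40.8, 28.4 and 29.2 CPM in KO1 to KO4, and 26.4, 27.1, 20.4 and 22.6 CPM in WT1 to WT4. KO2 stood high, and the labels did not overlap, by 28.0 against 27.1 CPM at the nearest. Jag2 was the 1 gene of the 13 without overlap, where 1.53% of all tested genes lay that way. Its log2 fold change was 0.39 ± 0.17 (edgeR quasi-likelihood adjusted p = 0.998), and 0.24 to 0.45 with 1 library left out. Notch1 and the nuclear partner Rbpj had log2 fold changes of -0.19 ± 0.17 and 0.14 ± 0.11. Of 10 tested RGS genes 0 passed and 4 were positive, with Rgs14 at -0.48 ± 0.32 and Rgs19 at -0.26 ± 0.18.

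Markers of other cells of fat were read from the same fit. Of 11 fibroblast, 9 adipocyte and 7 macrophage markers tested, 0 passed in each list, and the medians of their log2 fold changes were -0.0077, 0.08 and -0.08. Endothelial markers summed to 1211 to 1613 CPM in libraries labelled KO and 1314 to 1581 CPM in those labelled WT. KO3, which was highest for Tagln, Myl9 and Lmod1, was also the highest of the 8 for the endothelial sum, and KO1, lowest for Rgs5, Pdgfrb and Notch3, was the lowest; whether vessel content bears on these genes was not tested.

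The genes whose order of the 8 libraries by CPM was most like that of 3 members were named by the sum of absolute rank differences, which can reach 32 and averages 21 over all orders. Ties were broken by the distance between standardised levels: 4 genes were at a sum of 2 or less for Acta2, 7 for Des and 11 for Rgs5. For Acta2 they were Lix1l (sum 0), Cpox (2) and Apold1 (2), an endothelial gene. For Des they were Mitf (0), Usp13 (2) and Ube2c (2). Ube2c had 306, 179, 37 and 287 reads in KO1 to KO4, and 45, 30, 43 and 10 reads in WT1 to WT4. These were nearly the reads of the fast skeletal troponin gene Tnnc2. Tnnc2 had 308, 179, 34 and 284 reads in KO1 to KO4, and 38, 29, 39 and 3 reads in WT1 to WT4. Whether the same reads were counted for both genes was not tested. For Rgs5 they were Rab10 (0), Gm10606 (2) and Trappc8 (2). With 14556 genes and 8 libraries, such likeness is a description of these libraries.

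Other tests called some of these genes. DESeq2 called Des higher (log2 fold change 2.09, adjusted p = 0.0156), where it called 0.266% of genes higher. The edgeR likelihood ratio test did so too (adjusted p = 0.0131), where 0.206% of genes were called higher. Without KO3 the edgeR quasi-likelihood test gave Des a log2 fold change of 2.40 and an adjusted p of 0.00133, where 0.336% of genes were called higher. The same 3 settings also called Tpm1, Tpm2 and the skeletal muscle markers Mb, Actn2 and Mybpc1 higher. These 3 markers had the smallest p of the skeletal muscle list in the quasi-likelihood test with all libraries. Acta1 was called by none of these settings, and calls of the other skeletal muscle markers are not given here. Synm was called without KO3 (edgeR quasi-likelihood adjusted p = 0.0336). For Tpm1 the adjusted p was 0.0131 by the edgeR likelihood ratio test and 0.00372 by the quasi-likelihood test without KO3. Over all alternatives the adjusted p of Des ran from 0.00133 to 0.99999. Of 18022 genes in the authors' deposited table, 436 (2.42%) had an adjusted p under 0.05, and 1 of the 10 members was among them, Des, with a log2 fold change of 2.09 and an adjusted p of 8.57e-17. The authors' deposited table gave Lmod1 a log2 fold change of 0.54 and an adjusted p of 1.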

How the data were processed

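Poly(A) RNA was made into libraries with a PCR-amplified, non-directional kit, as named in the protocols. FastQC, Bowtie2, edgeR and the build mm9 appear in the submitters' processing notes, with counter and annotation not given in the sources used here. Raw read counts for each gene were deposited by the authors, and a table with log2 fold changes, log2 mean levels, p-values and adjusted p-values whose columns carry edgeR's names, per the file headers. Its signs match KO over WT in 753 of 753 genes past 2-fold.

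Groups came from sample titles and columns were matched by mouse label. Labels were compared by quasi-likelihood F tests in edgeR 4.0.16 under R 4.3.3 (TMM, filterByExpr, robust fit, Benjamini-Hochberg at 0.05 over all 14556 tested genes, label as the sole term), tested on simulated data. An SE is the absolute log2 fold change divided by the square root of F, and intervals are 95%. The common dispersion was 0.0337. No library was a copy of another (smallest chi-square per gene 4.45). Reads from PCR are not independent molecules, so counts carry counting error at least.

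The labels give a mouse per library, and p-values set the label difference against the spread between mice, estimated partly from other genes. Members and lists were chosen with earlier results of these data known, so no list was tested. Named were the members, Myh11, Acta1, Pecam1, Prkd1, from each list up to 3 genes with the smallest p (for other cell types and skeletal muscle these are given as counts, medians and sums) and 3 genes nearest in library order to Acta2, Des and Rgs5. Per-length levels were planned on coding length from protein sequences, and used exon lengths of GENCODE M21 (Ensembl ID match), whose build differs from the counts'; coding lengths of GENCODE M21 were an alternative. Other alternatives were DESeq2 1.42.0, limma-voom (limma 3.58.1), other scalings and filters, a block, a muscle covariate and each library left out.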

Additional observations from a re-analysis of the deposited data

Results flagged for a closer look

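Gaps within a label were looked at in 44 sets of 4 libraries (10 members and 12 marker sums under each label), and 3 had 1 library standing apart from the other 3, where chance gives about 1 in 20. Cspg4 was at 98.1 CPM in WT4, against 68.9 to 71.9 CPM in the other libraries labelled WT. Notch3 was at 111 CPM (110.9) in the same library, against 88.0 to 89.6 CPM. Schwann cell and nerve markers summed to 626 CPM in KO1, against 279 to 330 CPM in the other libraries labelled KO. WT4 was at the lower end for other members, being the lowest of 8 for Myl9, Lmod1 and Des.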

How the results depend on the processing

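The count of genes past the threshold was 0 in the quasi-likelihood test, 51 with DESeq2, 34 by likelihood ratio and 0 to 50 with 1 library left out, the 50 without KO3. The count of members past it was 0, and 1 with DESeq2, 1 by likelihood ratio and 0 to 1 with 1 library left out; the 1 was Des. Members whose labels did not overlap numbered 1, and 1 to 2 with 1 library left out (Des joined Lmod1 without KO3 or WT1, and Myl9 without WT2), where 2.59% to 3.62% of all tested genes lay without overlap with KO higher, against 1.53% with all 8. Of the 10 places in the order of levels, 3 were kept without length and 5 with coding length. The plan named coding length from protein sequences, so the order by exon length is not the planned one. Coding lengths of GENCODE M21 were taken up after the data were seen. By them Tagln was above Acta2 (70.1 against 49.6 CPM per kilobase), and Des (17.8) was above Notch3 (14.3) and Cspg4 (11.6). Counts of genes and members past the threshold stayed at 0 under other scalings and filters, without the robust option, with limma-voom and with the muscle covariate; at an adjusted p of 0.1 the quasi-likelihood test also called 0. Genes at an unadjusted p under 0.05 numbered 653, and 454 (replicate block) to 873 (no count filter) elsewhere.

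Signs of these log2 fold changes turned. With 1 library left out the range was -0.034 to 0.30 for Tagln, -0.085 to 0.20 for Rgs5, -0.127 to 0.097 for Pdgfrb, -0.024 to 0.14 for Prkd1, -0.097 to 0.17 for Pdgfc and -0.188 to 0.026 for Pdgfb. With skeletal muscle as a covariate Pdgfrb was 0.092, Acta1 (2.94 without it, and itself 1 of the 24 markers in the covariate) -0.097, Pecam1 0.012, Prkd1 -0.114, Pdgfra -0.080, Pdgfb 0.196 and Notch1 0.337. With KO3 as the sole library labelled KO, chosen after the data were seen, whose spread is then taken from the other label, Pdgfrb was 0.095, Pecam1 0.023, Prkd1 -0.022, Pdgfra -0.073, Pdgfc -0.051, Pdgfb 0.280 and Notch1 0.159. The cause was not tested.

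Replicate numbers did not pair the samples: deviations of libraries with the same number had correlations of -0.291 to -0.144. With the replicate number as a block 0 genes and 0 members passed, with Des at 1.96 and Lmod1 at 0.55. Depth limits Cnn1 and Lmod1, which had at most 8 and 23 reads in a library.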
